A study of Mus musculus with 14 samples.

Results

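The H3K27me3 regions described here were listed as unique to hearts of 68-week-old mice and were linked by the authors to at least 1 gene whose RNA was present in the heart. Regions were selected on RNA level, and a region was kept where a linked gene averaged at least 0.5 CPM (a gene's counts scaled to a common library total) over 8 RNA-seq libraries. This left 749 of the 3433 regions in the 68-week list, and they were linked to 497 genes. A further 877 regions were linked only to genes under 0.5 CPM, 82 only to genes outside the count table, and 1725 to no gene. The RNA level chose the regions, so that level is given as a description. The rule averages over both ages and so did not use the difference between them, which was tested. A gene under 0.5 CPM at 1 age could still enter through the other: 3 genes, Ryr1, Dpp6 and Adgrb1, reached that mean at 68 weeks only, and 25, Pax5 among them, at 12 weeks only. For those genes the level at the higher age decided membership, so their age difference is given as a description, without a p.

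Hearts came from male C57BL/6 mice of WT genotype kept on standard chow, aged 68 weeks or 12 weeks. Each age had 4 libraries of total RNA, 2 H3K27me3 CUT&RUN libraries and 1 input library, all from powdered heart tissue, fixed in formaldehyde for CUT&RUN, and the labels name no transgene or treatment. Whether the 4 RNA libraries at an age are from different animals is not labelled, so a p-value reflects only how these libraries varied, which may be technical. The series title names dietary glutamine and H3K27me3 in the ageing heart. No glutamine-fed group was analysed here.

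H3K27me3 is the trimethylated form of lysine 27 of histone H3. The enzymes EZH1 and EZH2 of Polycomb repressive complex PRC2 place it, the demethylases KDM6A and KDM6B remove it, and it is best known for holding developmental genes silent. In mammals PRC2 is recruited chiefly to DNA rich in unmethylated CG pairs that lies free of active transcription, so a region near a transcribed gene is a less usual place for the mark. In CUT&RUN an antibody against the mark directs a nuclease that releases the bound DNA for sequencing.

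The 68-week list gives a position, a width and a score for each region. The authors call the score enrichment, without a stated scale, and it is used here to rank regions within a list. The list holds no value per library, so no region value has a replicate error. The positions are printed without a genome build, because they could not be placed on mm10, the build named for the series. Of 768 links between these regions and expressed genes, 205 (26.7%) had the region within the gene as the count tables place it; in the remaining links the gap had a median of 115 kb. A shift of 109 kb on chromosome 11 moved the number of such links there to 34 of 42, against 5 of 42 without it. The authors' own links between regions and genes were therefore used, and no distance from a region to a gene is given.

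Promoter sequences are shown for 5 linked genes whose RNA differed with age. They are the genes with the most regions among those higher at 68 weeks, Pde11a and Ryr1, the gene with the smallest p, Acsl6, and 2 genes that fell, Ntrk2 and Trim63. Each runs from 250 bases before to 50 bases after the RefSeq start in GRCm38.p6, 5′ to 3′, with every CG pair in capitals, since CG pairs are what PRC2 recruitment is known to follow. These are promoters, not the H3K27me3 regions.
Pde11a, chr2:76338889-76339188, minus strand: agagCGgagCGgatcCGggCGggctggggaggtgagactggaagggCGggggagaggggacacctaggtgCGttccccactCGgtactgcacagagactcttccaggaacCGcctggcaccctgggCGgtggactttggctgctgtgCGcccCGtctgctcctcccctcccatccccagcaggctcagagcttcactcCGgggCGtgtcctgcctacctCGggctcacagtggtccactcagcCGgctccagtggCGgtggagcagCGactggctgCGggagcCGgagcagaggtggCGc
Ryr1, chr7:29125102-29125401, minus strand: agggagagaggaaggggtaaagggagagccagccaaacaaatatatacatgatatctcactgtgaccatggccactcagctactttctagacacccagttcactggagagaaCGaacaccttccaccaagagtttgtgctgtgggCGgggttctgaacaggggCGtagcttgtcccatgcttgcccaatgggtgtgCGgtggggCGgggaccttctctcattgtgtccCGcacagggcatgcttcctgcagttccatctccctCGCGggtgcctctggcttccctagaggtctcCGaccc
Acsl6, chr11:54303574-54303873, plus strand: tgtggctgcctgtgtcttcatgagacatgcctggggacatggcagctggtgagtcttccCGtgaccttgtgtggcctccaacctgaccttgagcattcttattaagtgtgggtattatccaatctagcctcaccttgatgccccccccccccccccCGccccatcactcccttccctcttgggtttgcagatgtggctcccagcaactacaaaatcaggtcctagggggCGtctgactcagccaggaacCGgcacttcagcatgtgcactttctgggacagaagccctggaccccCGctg
Ntrk2, chr13:58806319-58806618, plus strand: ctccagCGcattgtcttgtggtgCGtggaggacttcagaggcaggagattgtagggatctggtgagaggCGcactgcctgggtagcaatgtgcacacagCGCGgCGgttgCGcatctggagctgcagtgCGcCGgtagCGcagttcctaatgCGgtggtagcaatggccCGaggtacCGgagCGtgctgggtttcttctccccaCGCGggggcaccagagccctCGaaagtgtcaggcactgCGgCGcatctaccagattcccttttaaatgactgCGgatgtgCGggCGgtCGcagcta
Trim63, chr4:134314870-134315169, plus strand: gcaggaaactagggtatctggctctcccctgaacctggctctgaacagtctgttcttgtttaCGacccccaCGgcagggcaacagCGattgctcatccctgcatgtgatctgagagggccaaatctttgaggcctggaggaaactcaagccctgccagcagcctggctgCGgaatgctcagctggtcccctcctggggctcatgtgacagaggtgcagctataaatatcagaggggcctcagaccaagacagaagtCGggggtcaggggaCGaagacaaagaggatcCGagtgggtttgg
Among these, Ntrk2 and Pde11a held 23 and 20 CG pairs, and Ryr1, Trim63 and Acsl6 held 9, 7 and 5. Over all promoters in the RefSeq table the median was 7, with quartiles of 3 and 20, and 94.6% held at least 1 CG, a pair that reads the same on both strands. The 5 promoters therefore ran from below the median to above the upper quartile. Both genes that fell and genes that rose included a promoter at or above that upper quartile. Only 343 of the 497 genes (69.0%) had a promoter in the table, so no comparison was made over all of them.

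Regions linked to expressed genes were narrow and of ordinary score for the 68-week list. Their median width was 268 bases (range 201 to 4396), against 265 for regions linked only to genes under 0.5 CPM and 267 for regions with no linked gene. Their median score was 4.63 (quartiles 4.04 and 5.59, range 3.17 to 20.7), against 4.75 and 4.82 in those other classes of the list. A score of 10 or more was reached by 10 of 749 regions (1.34%), against 1.71% of regions linked only to genes under 0.5 CPM and 1.22% of regions with no linked gene. Regions linked to expressed genes thus sat slightly below the others over most of the score range, with no replicate error to set that gap against.

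**Figure D1:**
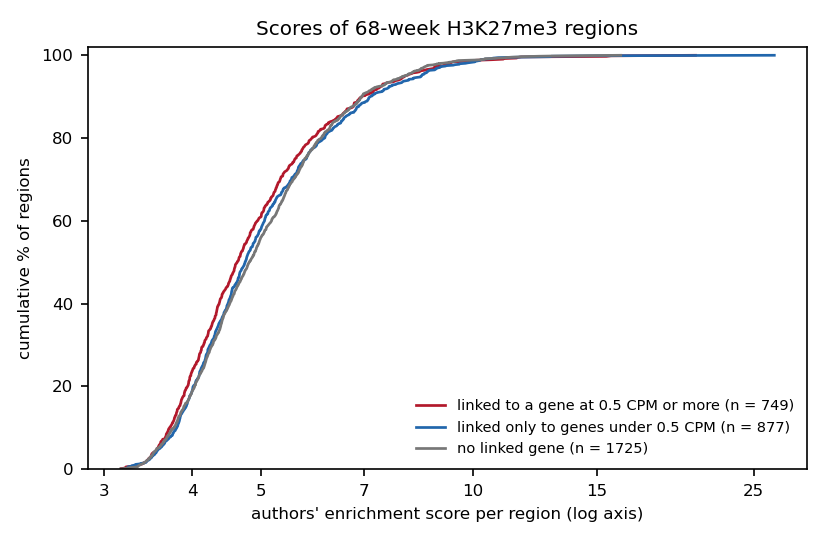
Cumulative percent of 68-week H3K27me3 regions (y axis) against the authors' enrichment score on a log axis (x axis), for regions linked to a gene at 0.5 CPM or more (n = 749), regions linked only to genes under 0.5 CPM (n = 877) and regions with no linked gene (n = 1725). The 3 curves lie close together, with medians of 4.63, 4.75 and 4.82.

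The highest score belonged to a region of chromosome 1, chr1:24650762-24655157, which was also the widest at 4396 bases and scored 20.7. It was linked to 7 predicted genes, among them Gm10925 and Gm28661. This stretch is known as a nuclear copy of mitochondrial DNA. Reads from mitochondrial transcripts and from the near-identical copies therefore cannot be told apart, and the counts of these genes are uncertain. CUT&RUN reads from mitochondrial DNA have the same limit, so the score and width of this region are uncertain as well. Gm28661 stood at 20.2, 18.4, 22.4 and 22.6 normalised CPM in 68-week replicates 1 to 4, against 12.0, 17.3, 22.7 and 21.4 in 12-week replicates 1 to 4. The ages overlapped, and none of the 7 genes was called. Mitochondrial genes took 10.1% to 12.1% of counts in the 68-week libraries and 7.41% to 11.5% in the 12-week libraries; the part of this in the values of the 7 genes was not tested.

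The next regions by score each had a single named gene as their link. They were linked to the VIP receptor gene Vipr1 (15.7), Fam105a (15.5), the microtubule-affinity kinase gene Mark1 (11.7), the RNA-binding protein gene Igf2bp3 (11.6), the paired-type homeobox gene Prrx2 (11.5), the myelin regulatory factor gene Myrf (11), the chromatin remodeller gene Chd5 (11), the growth factor gene Fgf18 (10.6) and the transmembrane collagen gene Col13a1 (10.1). By edgeR, 0 of the 16 genes linked to these 10 regions passed the test for age, where 2 had an unadjusted p under 0.05 and DESeq2 called 1. Mark1 came closest, at 13.4, 12.5, 15.2 and 14.9 normalised CPM at 68 weeks against 12.0, 11.8, 10.7 and 11.5 at 12 weeks (log2 fold change 0.29 ± 0.079 SE, adjusted p = 0.089, edgeR). Its ages did not overlap, yet it missed the threshold. Several of the others were close to the level that chose them: Prrx2 averaged 0.601 CPM, Igf2bp3 0.8 and Chd5 1.24 over the 8 libraries. The other wide regions were linked to A2m (1334 bases), Igf2bp3 again (1208 bases), Slc38a1 (998 bases) and the neighbours 2010007H06Rik and Colca2 (974 bases).

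By chromosome, 111 of the 749 regions (14.8%) were on chromosome 7, which held 9.38% of the whole 68-week list. Of the 7 regions on the X chromosome in that list, 0 were linked to an expressed gene. Chromosome 17 held 14 regions (1.87%), against 3.79% of the list. On chromosome 7, 3 genes alone accounted for 30 regions, namely Fgfr2 with 17, Kndc1 with 7 and Ryr1 with 6.

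Regions were spread over many genes. Of the 497 genes, 353 had 1 region, 87 had 2, 28 had 3 and 29 had 4 or more. The fibroblast growth factor receptor gene Fgfr2 had the most, 17, over 1197 kb; its annotated span in the count tables (chromosome 7, 130162451 to 133123350, minus strand) is 2961 kb and contains other genes, so these links may belong to neighbours. Pde11a, which encodes a phosphodiesterase that breaks down both cAMP and cGMP, had 10 regions between positions 75830015 and 75928122 of chromosome 2. Pde4dip, which encodes the Golgi and centrosome scaffold myomegalin, had 9, the Ras exchange factor gene Kndc1 had 7, and both Ndrg4 and the skeletal muscle calcium release channel gene Ryr1 had 6. Among these 6 genes Pde11a was called with age. Ryr1 was higher at 68 weeks but met the rule through the 68-week libraries, so this is a description. The other 4 were not called.

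The linked genes were longer and less abundant than the typical expressed gene. Their median span was 71.5 kb, against 22.0 kb for the 14958 genes at 0.5 CPM or more, and 202 of them (40.6%) spanned over 100 kb, against 13.4%. Genes at this level linked to the 12-week list had a median span of 47.7 kb. A longer gene offers more room for a linked region, and no test was made. Over the 497 genes, Spearman's rho between span and number of regions was 0.18, as a description of genes that share libraries and a linking rule. Their median level was 5.00 CPM (quartiles 1.5 and 22.5), against 14.8 CPM for expressed genes as a whole. The levels still reached into the contractile apparatus, with the alpha-myosin heavy chain gene Myh6 at a mean of 22066 CPM, the titin gene Ttn at 12270, the regulatory light chain gene Myl2 at 3797 and Pde4dip at 2502. Per kilobase of transcript, Myh6 stood at 3477 CPM, Myl2 at 1947, Pde4dip at 148 and Ttn at 105, so the order of Ttn changes with length. None of these 4 genes was called with age.

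**Figure D2:**
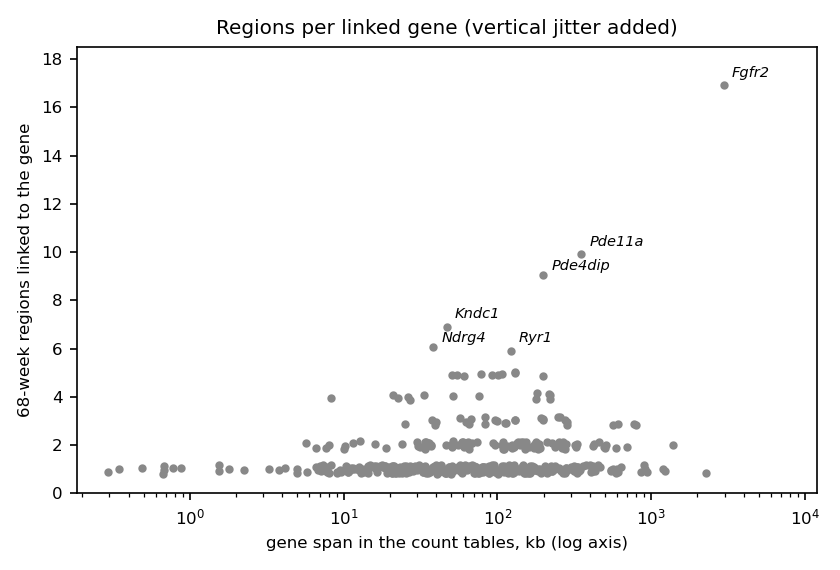
Number of 68-week regions linked to each of the 497 genes (y axis, with vertical jitter) against the gene's span in kb on a log axis (x axis). Most genes have 1 region at any span, while Fgfr2 has 17, Pde11a 10 and Pde4dip 9.

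At the threshold of the rule, the linked genes just inside were Slc5a1 at 0.515 CPM, Tgm4 at 0.521 and Ptprn2 at 0.522, and just outside were Gm14066 at 0.479 with 2 regions and T2 at 0.473.

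Transcripts of airway epithelium differed widely between libraries, and membership differed between libraries low and high in them. Summed over 20 airway markers, all of them above 0 in at least 1 library, the level was 31.3, 19.1, 1278 and 26.6 CPM in 68-week replicates 1 to 4, against 1994, 1063, 628 and 67.1 CPM in 12-week replicates 1 to 4. The high libraries were thus 1 at 68 weeks and 3 at 12 weeks, so a split by these markers is largely a split by age. Over the 4 libraries with the lowest sums, 38 of the 497 linked genes fell under 0.5 CPM, and the rule applied there would have kept 688 regions and 459 genes. The mucin gene Muc5b averaged 0.4 CPM in those 4 libraries and 27.6 in the other 4, and the axonemal dynein gene Dnah5 averaged 0.187 and 12.5. The basal cell keratin gene Krt5, Kndc1 and Prrx2 were also among the 38. Others of the 38 were near the level in both sets, such as Kcnh1 at 0.49 and 0.599 CPM. No other choice of 4 libraries was set beside this one, and the parts of airway content, age and few counts were not tested. Of the 38, 1 was called with age, Pax5, which met the rule through the 12-week libraries.

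**Figure D3:**
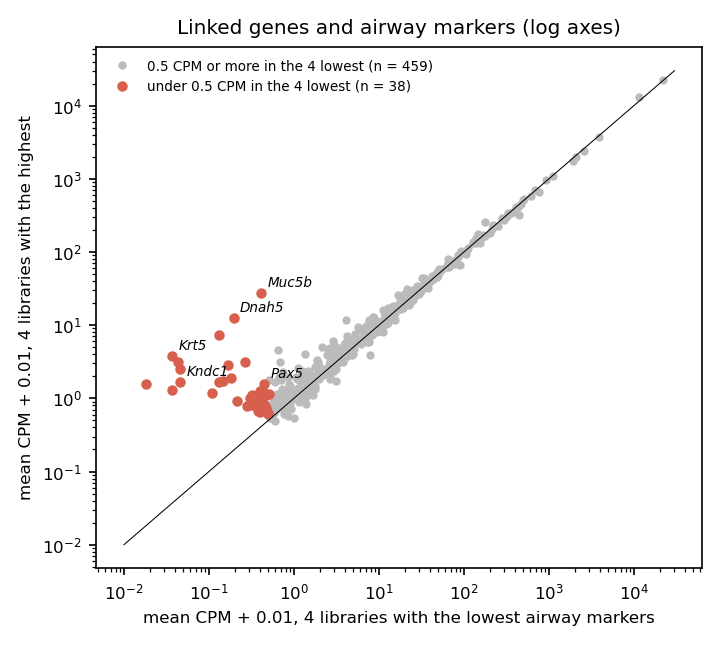
Mean CPM plus 0.01 of each linked gene in the 4 libraries with the lowest airway markers (x axis) and in the 4 with the highest (y axis), both on log axes, with the line of equal levels. The 38 genes under 0.5 CPM in the 4 lowest include Krt5, Muc5b and Dnah5, which lie far above the line.

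Whether genes linked to these regions differed in RNA between the ages was asked with edgeR's quasi-likelihood test over 15947 genes. The threshold was an adjusted p of 0.05 by Benjamini-Hochberg. Of the 497 linked genes 496 passed the filter on low counts, and Slc25a48 did not. At 68 weeks, 19 were higher and 11 were lower, 6.05% of those tested, where 2.83% of all genes tested were called. By direction, 3.83% were higher and 2.22% lower, where 1.61% and 1.22% of all genes were. Against tested genes at 0.5 CPM or more, the level the rule requires, the shares called were 2.95% in either direction, 1.67% higher and 1.28% lower. The share was therefore above the background in both directions, and the 30 called genes held 61 of the 749 regions (8.14%). These counts include the genes that entered through 1 age. Among the 469 linked genes at 0.5 CPM or more in both ages, 16 were higher and 10 lower (3.41% and 2.13%, together 5.54%), against 1.6%, 1.23% and 2.83% of all genes at that level in both ages.

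By span, of linked genes spanning over 100 kb, 14 of 202 (6.93%) were called, against 4.93% of all such genes at 0.5 CPM or more. Up to 100 kb, 16 of 294 (5.44%) were called, against 2.64%. By level, 5.65% of linked genes under 5 CPM and 6.45% of those at 5 CPM or more were called, against 2.75% and 3.04%. The linked shares by span, level and number of regions include the called genes Ryr1, Dpp6, Adgrb1 and Pax5, which met the rule through 1 age. All of these averaged under 5 CPM. Of the genes with 2 or more regions 14 of 144 (9.72%) were called, and of those with 1 region 16 of 352 (4.55%). Over all tested genes at 0.5 CPM or more the share was 2.95%. Ryr1 and Pax5 are among the 14. The number of regions rose weakly with span (Spearman's rho 0.18), and the part of span in this gap was not tested. Spearman's rho between the number of regions and the log2 fold change was -0.02 over 496 genes, which share the same 8 libraries.

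The linked genes had no common direction. The median log2 fold change was -0.01, as it was over all genes tested (-0.0147 and -0.00816), with 236 values above 0 and 260 below. The median size of the change regardless of sign was 0.21 among linked genes and 0.11 among all genes tested. It was also 0.11 among tested genes at 0.5 CPM or more. Linked genes were less abundant, at a median of 5.00 CPM against 14.8 for genes at that level. Sizes were not compared at matched levels, so the part of low level in this gap was not tested. In whole-heart RNA, fewer cells of a type and less RNA per cell cannot be told apart.

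**Figure D4:**
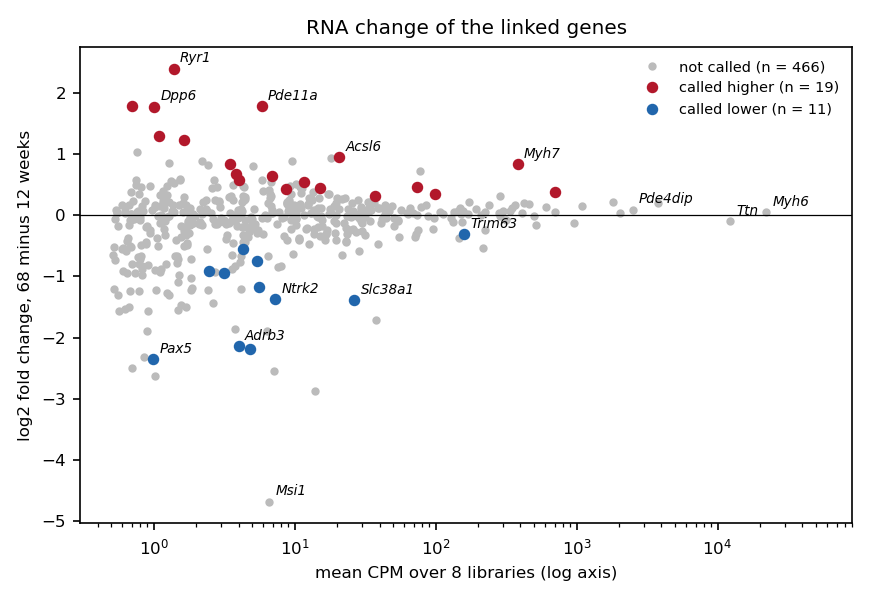
Log2 fold change in RNA, 68 minus 12 weeks (y axis), against mean CPM over the 8 libraries on a log axis (x axis), for the 496 linked genes tested. The 19 called higher and 11 called lower lie on both sides of 0, and Myh6, Ttn and Pde4dip lie near 0.

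Leaving out any 1 library lowered the number of linked genes called. Without 68-week replicate 1, 2, 3 or 4 the numbers of linked genes called higher were 14, 12, 12 and 9, and without 12-week replicate 1, 2, 3 or 4 they were 8, 8, 9 and 14. The numbers called lower were 4, 3, 11 and 1 without those 68-week replicates, and 2, 2, 6 and 7 without those 12-week replicates. In these fits 0.723% to 1.28% of all genes were higher and 0.321% to 0.957% lower, against 1.61% and 1.22% with all 8 libraries. A fit with fewer libraries is also less able to call a gene, and the part of particular libraries in the loss was not tested. In all 8 of these fits 7 genes were called: Acsl6, Myo5b, Pde11a, Neurl1a, Dpp6, Gsg1l and Slc38a1. With the airway marker sum in the model, 10 linked genes were called higher and 2 lower, where 0.464% and 0.138% of all genes were, and 10 of the 30 stayed called. These were the same 7 with Ryr1, Adgrb1 and Mpv17l. Dpp6, Ryr1 and Adgrb1 had entered through 68 weeks only, so their calls in any of these fits are a description. All 30 kept their sign in the airway model. DESeq2, which called 31 linked genes higher and 32 lower (3.34% and 2.58% of all genes), called all 30. The 68-week libraries did not overlap the 12-week libraries in any of the 30. The calls were made on these same libraries, so this adds no support to them. The share over all genes was not counted.

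Among signalling and metabolic enzymes that rose, Acsl6, which encodes a long-chain acyl-CoA synthetase (chromosome 11, 54303798 to 54364756, plus strand, mm10 by label), had the smallest p. It stood at 27, 27, 29.9 and 25.4 normalised CPM in 68-week replicates 1 to 4, against 14.1, 15.5, 14.8 and 12.3 in 12-week replicates 1 to 4. Every 68-week library was well above every 12-week library, with a log2 fold change of 0.95 ± 0.080 SE (adjusted p = 0.000829, edgeR). Its 2 regions lay at chr11:54226641-54226983 and chr11:54237284-54237576, with scores of 7.22 and 5.91. The second was also linked to Gm12224, and whether counting used strand is not given in the sources used here. Throughout, gene positions are mm10 by label, while region positions could not be placed on mm10. No distance between a region and a gene can be read from them.

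Pde11a (chromosome 2, 75989141 to 76338774, minus strand), with its 10 regions, stood at 12.4, 9.70, 8.51 and 5.98 normalised CPM at 68 weeks, against 2.21, 2.33, 2.32 and 3.68 at 12 weeks. The lowest 68-week library, replicate 4, still lay above the highest 12-week library, also replicate 4. The log2 fold change was 1.79 ± 0.24 (adjusted p = 0.00738, edgeR) and 1.62 ± 0.26 (adjusted p = 0.0336) once airway markers entered the model. The scores of its regions ran from 3.74 to 7.53, and the 2 highest, chr2:75927077-75927477 and chr2:75926476-75926818, were neighbours. Neurl1a, a ubiquitin ligase gene, also rose (0.83 ± 0.12, adjusted p = 0.0101, edgeR), and so did Sulf2, which encodes an extracellular heparan sulfate sulfatase (0.35 ± 0.066, adjusted p = 0.0287, edgeR).

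Ryr1 (chromosome 7, 29003344 to 29125179, minus strand) stood at 1.59, 3.10, 2.74 and 2.02 normalised CPM at 68 weeks, against 0.412, 0.287, 0.904 and 0.217 at 12 weeks. It was low throughout and the ages did not overlap (log2 fold change 2.4 ± 0.40). It averaged 2.31 CPM at 68 weeks and 0.46 at 12 weeks, so it met the 0.5 CPM rule through the 68-week libraries. Without 12-week replicate 1 or 2 it was not called. Its 6 regions lay between positions 28773514 and 28819774 of chromosome 7, with scores from 3.49 to 5.69. Ryr1 is the main release channel of skeletal muscle. The summed skeletal muscle markers stood at 1563 to 1818 CPM at 68 weeks and 1539 to 1839 at 12 weeks. Of these 10 markers, 5 passed the filter on low counts. The part of skeletal muscle cells in the Ryr1 values was not tested.

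Dpp6, which encodes a partner of Kv4 potassium channels, stood at 1.56, 1.44, 1.87 and 1.43 normalised CPM at 68 weeks, against 0.648, 0.467, 0.473 and 0.217 at 12 weeks. All 68-week values were above those at 12 weeks (log2 fold change 1.78 ± 0.28). It too met the rule through the 68-week libraries, at 1.54 CPM against 0.463 at 12 weeks.

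Myo5b, a vesicle motor gene, stood at 80.3, 87.9, 84.2 and 90.6 normalised CPM at 68 weeks, against 62.8, 62.4, 61.6 and 62.6 at 12 weeks (log2 fold change 0.46 ± 0.047, adjusted p = 0.00265, edgeR). This was a small change on closely spaced values. The AMPA receptor partner gene Gsg1l (0.45 ± 0.074), the sodium pump partner gene Nkain1 (0.44 ± 0.076), the active zone scaffold gene Erc2 (1.29 ± 0.23) and the lysosomal chloride transporter subunit gene Ostm1 (0.32 ± 0.059) also rose, with adjusted p between 0.0174 and 0.0285 (edgeR). Erc2 was low, at 1.42 to 1.69 normalised CPM at 68 weeks, against 0.431 to 0.903 at 12 weeks. The adhesion receptor gene Adgrb1 stood at 0.865 to 1.26 at 68 weeks, against 0.144 to 0.442 at 12 weeks, and met the rule through the 68-week libraries alone (log2 fold change 1.79 ± 0.31). The other called genes named here were Tmem266 (0.58), the flippase gene Atp8a2 (0.55), Myh7 (0.83), the Rac activator gene Dock3 (1.23), Mpv17l (0.68) and the postsynaptic scaffold gene Shank1 (0.65), with adjusted p between 0.0308 and 0.0498 (edgeR).

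Myh7, which encodes beta-myosin heavy chain, a marker of the stressed mouse heart (chromosome 14, 54970688 to 54994634, minus strand), stood at 408, 514, 527 and 522 normalised CPM at 68 weeks, against 263, 198, 278 and 368 at 12 weeks. 68-week replicate 1 was the low one of its age and 12-week replicate 4 the high one of the other, and they stood nearest to each other. It was called in 2 of the 8 fits without 1 library, with log2 fold changes from 0.70 to 1.00. Its 2 regions scored 5.21 and 4.32. Its close relative Myh6, with 1 region, stood at 21180 to 24600 normalised CPM at 68 weeks and 20310 to 23320 at 12 weeks and was not called. Reads shared between these similar genes are uncertain.

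**Figure D5:**
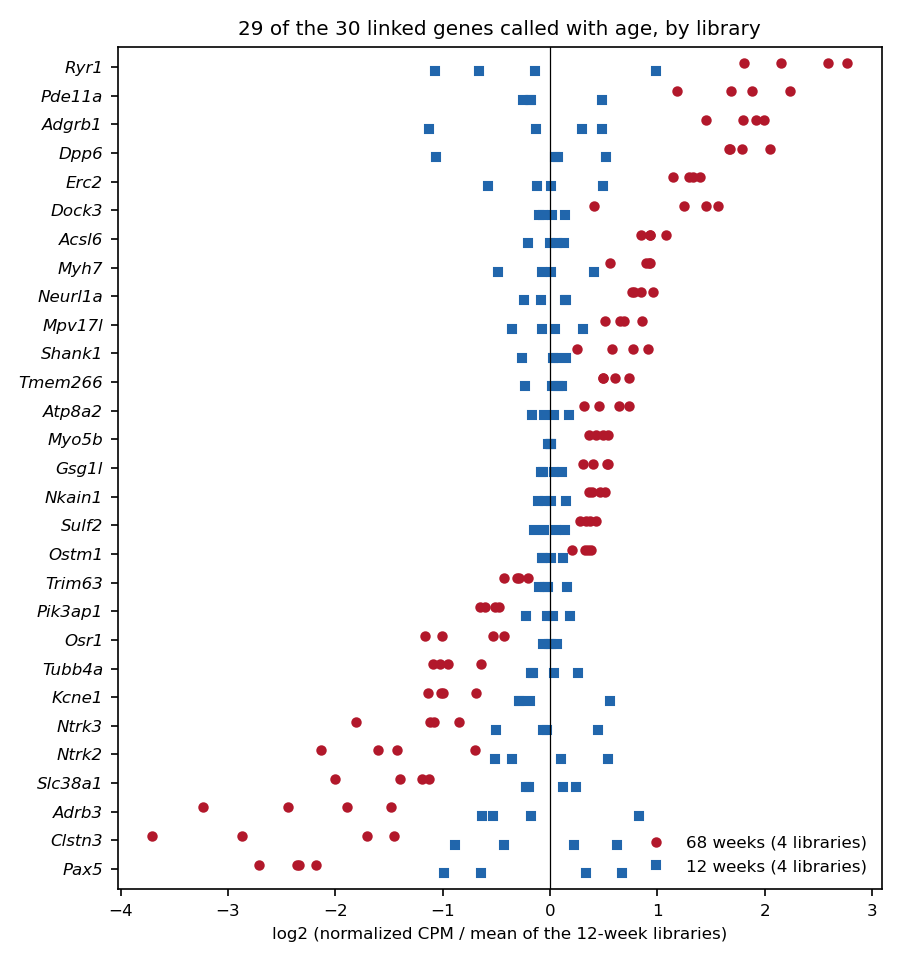
Normalised CPM of 29 of the 30 called genes in each library, as log2 of the value over the mean of the 4 12-week libraries (x axis), with 68-week libraries as circles above 12-week libraries as squares for each gene (y axis, ordered by log2 fold change). The genes drawn were called on these same libraries, and the ages do not overlap in any of them. Ryr1 and Pde11a at the top and Pax5 and Clstn3 at the bottom are farthest apart.

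Among genes that fell, the one with the smallest p was Slc38a1, which encodes the glutamine carrier SNAT1 (chromosome 15, 96571418 to 96642913, minus strand). It stood at 17.5, 9.52, 16.7 and 14.5 normalised CPM in 68-week replicates 1 to 4, against 32.7, 33.4, 41.6 and 45.0 in 12-week replicates 1 to 4. Every 68-week library was far under every 12-week library (log2 fold change -1.39 ± 0.18, adjusted p = 0.0068, edgeR). Of the 11 lower genes it alone stayed called in all 8 fits without 1 library, with log2 fold changes from -1.49 to -1.23. Its region, chr15:96538321-96539318, was among the 5 widest of the 749 but scored 4.66, near the median.

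Ntrk2, which encodes the BDNF receptor TrkB (chromosome 13, 58806596 to 59133970, plus strand), stood at 3.44, 3.89, 6.41 and 2.38 normalised CPM at 68 weeks, against 11.2, 7.29, 8.14 and 15.1 at 12 weeks. The ages were apart but widely spread, with a log2 fold change of -1.37 ± 0.31 just inside the threshold (adjusted p = 0.0498, edgeR), and it was called in 1 of the 8 fits, that without 68-week replicate 3 (-1.69, adjusted p = 0.026). Ntrk3, which encodes the neurotrophin-3 receptor TrkC, had 3 regions and fell as well, at 2.20 to 4.29 normalised CPM at 68 weeks against 5.42 to 10.5 at 12 weeks (-1.18 ± 0.23, adjusted p = 0.0333, edgeR). Schwann cell and neuron markers summed to 21.9 to 33.0 CPM at 68 weeks and 28.9 to 42.9 at 12 weeks, with 0 of 8 tested called. Their part in these results was not tested.

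The beta3-adrenergic receptor gene Adrb3 stood at 1.19, 2.31, 1.74 and 0.684 normalised CPM at 68 weeks, against 5.71, 4.17, 4.48 and 11.4 at 12 weeks (log2 fold change -2.13 ± 0.41, adjusted p = 0.0316, edgeR). Clstn3, which encodes a calsyntenin, stood at 1.06, 2.38, 2.84 and 0.595 at 68 weeks, against 9.07, 4.20, 5.77 and 12.0 at 12 weeks (-2.19 ± 0.46, adjusted p = 0.0427, edgeR). In both, 68-week replicate 4 was lowest and 12-week replicate 4 highest. Both are known from fat cells, and the 9 adipocyte markers, with 0 at 0 in every library, moved with them: their sum was 296 to 494 CPM at 68 weeks and 569 to 1153 at 12 weeks, and 3 of the 9 fell. Plin1, which coats lipid droplets and is linked to 2 of the regions, ordered the libraries of each age as Clstn3 did. It stood at 16.7, 23.3, 25.1 and 5.15 normalised CPM at 68 weeks, against 67.4, 34.3, 43.7 and 84.2 at 12 weeks. Plin1 missed the threshold (-1.72 ± 0.43, adjusted p = 0.0695, edgeR). The part of fat cells in these values was not tested.

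Pax5, the B cell regulator gene, stood at 0.364, 0.252, 0.322 and 0.327 normalised CPM at 68 weeks, against 1.06, 2.08, 2.63 and 0.83 at 12 weeks (log2 fold change -2.35 ± 0.39). It was under 0.5 CPM in every 68-week library, met the rule through the 12-week libraries, and had 2 regions with scores of 3.72 and 3.5. B and plasma cell markers summed to 6.31 to 23.4 CPM at 68 weeks and 9.07 to 31.5 at 12 weeks, 3 of 8 fell, and their part was not tested. Pik3ap1, a B cell and myeloid adaptor gene (-0.56 ± 0.11), fell as well (adjusted p = 0.0335, edgeR). The developmental factor gene Osr1 (-0.75 ± 0.16, adjusted p = 0.0407), the beta-tubulin gene Tubb4a (-0.92 ± 0.16, adjusted p = 0.0195) and the potassium channel subunit gene Kcne1 (-0.95 ± 0.21, adjusted p = 0.0498) also fell by edgeR.

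Trim63, which encodes the muscle ubiquitin ligase MuRF1 (chromosome 4, 134315120 to 134329629, plus strand), stood at 152, 142, 144 and 131 normalised CPM at 68 weeks, against 171, 196, 174 and 164 at 12 weeks. The gap between the ages was small (log2 fold change -0.31 ± 0.068, adjusted p = 0.0468, edgeR). Trim63, Kcne1 and Tmem266 were called in 0 of the 8 fits without 1 library, with adjusted p up to 0.117, 0.131 and 0.0797.

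The largest log2 fold change among linked genes that were not called belonged to Msi1, an RNA-binding protein gene with 4 regions, which was singled out after its values were seen. It stood at 0.629, 0.288, 0.548 and 0.476 normalised CPM at 68 weeks, against 0.795, 0.574, 24.2 and 25.6 at 12 weeks. 12-week replicates 3 and 4 were high and the other 2 near the 68-week level, so the ages overlapped (log2 fold change -4.68 ± 1.24, adjusted p = 0.0797, edgeR).

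By function, the linked genes included 12 of 38 listed genes of ion channels and calcium handling, the fullest of 13 lists. Of all genes at 0.5 CPM or more, 3.32% were linked. Linked genes were longer than expressed genes as a whole, and the part of gene span in this count was not tested. Of the 12, 1 was called higher and 1 lower, Kcne1, where 4 of the 38 were higher and 1 lower. The median log2 fold change was 0.09 for the 12 and 0.07 for the 38. The calcium channel gene Cacna2d2 had 5 regions and stood at 36.7, 11.5, 28.7 and 18.6 normalised CPM at 68 weeks, against 15.9, 7.94, 15.7 and 10.5 at 12 weeks, with overlap (0.93 ± 0.34, adjusted p = 0.183, edgeR). The pore gene of the L-type calcium channel, Cacna1c, had 3 regions and stood at 406 to 477 at 68 weeks against 364 to 405 at 12 weeks (0.20 ± 0.065, adjusted p = 0.128, edgeR). The potassium channel gene Kcnk3 had 2 regions and hardly differed, at 478 to 519 against 476 to 522 (-0.01 ± 0.051). The conduction gap junction gene Gja5, with 2 regions, stood at 16.2 to 23.0 at 68 weeks against 20.9 to 42.1 at 12 weeks, and was not called. Kcnd3, Scn10a, Cacna1g, Kcnj12, the pacemaker channel gene Hcn4 and Cacna1d had 1 region each and were not called.

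Of 23 sarcomere and cardiac stress genes 4 were linked, Myh7, Myl2, Myh6 and Ttn, and 1 was called, Myh7, which was also the only one called on that list. Of 137 homeobox and other developmental transcription factor genes, the class best known for H3K27me3, 4 were linked, among them Pax5, Osr1 and Prrx2. Osr1 fell, and Pax5, which met the rule through the 12-week libraries, was lower at 68 weeks. Counting genes under 0.5 CPM too, 9 of the 137 were linked to a 68-week region and 25 to a 12-week region.

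Of 71 genes of Wnt, BMP, TGF-beta, hedgehog and FGF signalling, 6 were linked (Fgfr2, Fgf12, Gli1, Bmp2, Gdf6 and Bmp7) and 0 of those were called by edgeR or DESeq2 or had an unadjusted p under 0.05. Fgfr2 stood at 3.05, 2.67, 5.8 and 3.57 normalised CPM at 68 weeks, against 8.28, 6.14, 3.36 and 2.56 at 12 weeks. High and low libraries occurred at both ages (-0.44 ± 0.37, adjusted p = 0.558, edgeR). Of 54 axon guidance and cell adhesion genes, 4 were linked and, likewise, 0 of those passed on any of these counts. They were the guidance ligand genes Slit2 and Efna5 and the ephrin receptor genes Ephb1 and Ephb2, with log2 fold changes from -0.16 to 0.29. Over all genes tested, edgeR called 2.83% and 19% had an unadjusted p under 0.05, so 0 of 6 and 0 of 4 show little about these sets. Of 25 core cardiac transcription factor genes the Notch target gene Heyl and the nuclear receptor gene Esrrg were linked, neither called. Slc38a1 was the one linked gene of 32 for amino acid transport and glutamine metabolism, of which 1 was higher and 4 lower. Acsl6 was the one of 27 for fatty acid metabolism, of which 1 was higher and 8 lower, and Col1a2 (-0.53 ± 0.14, adjusted p = 0.0772, edgeR) the one of 31 for extracellular matrix, of which 1 was higher and 6 lower. The 8 fibroblast markers, 1 of which was lower, summed to 944 to 1253 CPM at 68 weeks and 1349 to 1750 at 12 weeks, and their part in these values was not tested. The lists of Polycomb and H3K27 demethylase genes, cell cycle inhibitors and senescence, circadian clock, and autophagy and mitochondrial quality control held 0 linked genes. Of the cell type lists, Myl2, Myh6 and Ttn came from 10 cardiomyocyte markers, and the 8 endothelial, 8 macrophage, 7 neutrophil and 10 skeletal muscle markers held 0. The other lists held 1 or 2 each, among them Pdgfrb, Cd4 and Mbp. Of these only Pax5 was called, which met the rule through the 12-week libraries.

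The 749 regions were also set against the list of 1164 regions unique to 12 weeks. Overlap was 0, the smallest distance was 620 bases, 26 lay within 10 kb of a 12-week region, and the median distance was 743 kb. Since both lists hold regions called unique to an age, the lack of overlap follows largely from how they were made. At the level of genes, 32 had a region in both lists, which is 6.44% of the 497 and 15.3% of the 209 genes at 0.5 CPM or more linked to the 12-week list. Of the 32, 4 were higher with age (12.5%; Gsg1l, Tmem266, Dock3 and Shank1) and 1 lower (3.12%; Pax5), against 1.61% and 1.22% of all genes tested. Pax5 met the rule through the 12-week libraries, so its fall is a description. Tmem266, which encodes a membrane protein with a voltage sensor domain, had 3 regions at each age and stood at 4.57, 4.94, 5.38 and 4.55 normalised CPM at 68 weeks, against 3.5, 3.41, 2.75 and 3.29 at 12 weeks. Of the linked genes tested here 3.83% were higher and 2.22% lower, and of the 209 genes of the 12-week list 17 were higher (8.13%) and 2 lower (0.957%). The 2 sets share 32 genes and all 8 RNA libraries, and the difference between them was not tested.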

How the data were processed

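RNA values are raw counts per gene, deposited by the authors as whole numbers without normalization (file headers and values). Region lists were deposited with 1 score per region and no value per library. The submitters' processing notes name Trimmomatic 0.36, STAR 2.5.2b, Subread 1.5.2, Bowtie2 2.4.2 and MACS3 3.0.0b1, among others, and mm10. How genes were linked to regions and how replicates were combined is not given in the sources used here.

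Library totals were 28842059 to 34599121 counts at 68 weeks and 23599296 to 31662601 at 12 weeks. Genes were tested with edgeR 4.0.16 (TMM, filterByExpr, age alone in the model) and, as an alternative, DESeq2 1.42.0. The biological coefficient of variation in common over genes was 0.139. The SE is the size of the log2 fold change over the square root of F. Normalised CPM uses TMM library sizes; marker sums and the 0.5 CPM rule use total counts. Libraries of an age differed by more than sampling noise (chi-square per degree of freedom at least 17.4).

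The regions, gene lists and tests were chosen with earlier results of these data known. Named genes were up to 12 called in each direction by p, the 5 with the most regions, the most abundant, up to 4 linked members of each list and up to 5 with regions at both ages. The named regions were the 10 highest by score and the 5 widest. Calls outside this rule (Atp8a2, Mpv17l and Tmem266 among them) were named after their values were seen. A few genes are counted in the totals but not reported singly here. Alternatives were other normalizations, no low-count filter, a replicate block, airway markers in the model, subsets of libraries, and other region rules.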

Additional observations from a re-analysis of the deposited data

Results flagged for a closer look

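Single libraries that stood apart within an age were found in 11 of 110 groups of 4 libraries examined for the named genes, where chance gives about 1 in 20. In each, the gap to the nearest other library took most of the range of the group. Values are normalised CPM, and no cause was tested.

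At 68 weeks, replicate 3 held 12.2 for Muc5b, against 0.18 to 0.364 in the other 3 libraries. It also held 7.54 for Krt5 and 1.1 for Kndc1, each at 0 in the other 3. That library had the highest airway marker sum of its age, 1278 CPM. At 68 weeks Heyl stood at 31.1 in replicate 4, against 26.4 to 26.8, and Myh7 at 408 in replicate 1, against 514 to 527.

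At 12 weeks, replicate 4 held 3.68 for Pde11a, against 2.21 to 2.33, and 42.1 for Gja5, against 20.9 to 22.2. Replicate 1 held 101 for Pdgfrb, against 70.9 to 75, 43.4 for Heyl, against 31 to 32.4, and 364 for Cacna1c, against 399 to 405. Replicate 2 held 6.07 for Kcne1, against 3.36 to 3.62.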

How the results depend on the processing

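Of the linked genes, 19 were higher, 11 were lower, and their regions numbered 61. The replicate block gave 8, 2 and 30 (0.702% and 0.301% of all genes higher and lower), and airway markers in the model 10, 2 and 30 (0.464% and 0.138%). The 4 libraries with the lowest airway markers (3 at 68 weeks, 1 at 12 weeks) gave 1, 1 and 6, and the 4 with the highest (1 and 3) gave 0, 0 and 0, with 79 linked genes at an unadjusted p under 0.05 (edgeR). These fits called 0.2% and 0.029% of all genes; with a lone library at 1 age, assumed to vary like the others, they show nothing about dependence on airway content. DESeq2 gave 31, 32 and 108 (3.34% and 2.58%). Without a filter on low counts 20 were lower (0.882% of 30711 genes, and 1.73% of the 14958 at 0.5 CPM or more). Scores at or above the list's median left 9, 6 and 24, from fewer genes. Leaving out 1 library gave 8 to 14 higher, 1 to 11 lower and 21 to 45 regions. Within 1 kb, 2 regions were shared with the 12-week list. Library size alone gave 16 higher and 14 lower (1.1% and 1.56% of all genes, so the background turned towards lower), and edgeR with DESeq2's size factors 19 and 9 (1.62% and 1.1%). Taking the level over the 4 lowest-airway libraries gave 19 and 10, and requiring 0.5 CPM in both ages 16 and 10; both alternatives were chosen after seeing the data. The median log2 fold change ran from -0.07 to 0.05. Except as stated, the cause was not tested.

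Among the named genes, signs reversed only for those not called. By log2 fold change these were, in the airway model, Prrx2 0.0812, Gli1 0.18, Fgfr2 0.27, Cd4 0.29 and Ephb2 0.48. With library size alone they were Myh6 -0.0113 and Krt5 -0.0379, and without the filter Kcnk3 0.000255, which DESeq2 put at 0.00132. With the block they were Krt5 -2.01 and Cd4 0.00736. In the 4 lowest-airway libraries they were Efna5 -0.0471, Fgf12 -0.17, Kcnk3 0.0318, Ttn 0.10, Prrx2 0.16, Ephb2 0.19, Fgfr2 0.28 and Cd4 1.22. In the 4 highest they were Ephb1 -0.0124, Myh6 -0.0658, Gja5 0.10, Gli1 0.31 and Ephb2 0.44. Leaving out 1 library at a time, both signs occurred for Ephb2 (-0.471 to 0.194), Kcnk3 (-0.0332 to 0.0174), Cd4 (-0.327 to 0.164), Krt5 (-8.77 to 0.618), Ttn (-0.201 to 0.0824) and Bmp2 (-0.0261 to 0.223).

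The replicate numbers did not pair the libraries: deviations of same-numbered libraries correlated at -0.24, -0.04, 0.04 and 0.33. The share of regions at a gene start was not run, because the build of the region positions was not settled. Genes near 0.5 CPM rest on few counts, and the region lists carry no depth or replicate error.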
